A study of Homo sapiens with 4 samples.

Results

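The cytosolic ribosome is built from ribosomal RNA and a fixed set of proteins, those of the large 60S subunit (gene symbols RPL and RPLP) and those of the small 40S subunit (RPS and RPSA). Their genes are short, spread over the genome and highly transcribed in growing cells, and most of their mRNAs begin with a cytosine followed by a run of pyrimidines, the 5′ terminal oligopyrimidine tract through which mTOR signalling governs their translation. Acetylation of lysine 14 on histone H3 (H3K14ac) marks nucleosomes at active promoters and enhancers. Members were all protein-coding genes of the RefSeq table whose symbol is RPL or RPS, a number and at most one of the letters A, L, X or Y, together with RPLP0, RPLP1, RPLP2 and RPSA. The rule found 81 of 20037 protein-coding genes, 49 of the 60S and 32 of the 40S subunit, on 21 chromosomes, with 12 of them on chromosome 19. No measured value entered the rule.

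The study used chromatin immunoprecipitation followed by sequencing (ChIP-seq) with an antibody against H3K14ac in cultured MKN45 cells, a line from a human gastric carcinoma. Cells whose hairpin targets NIT2, which encodes an omega-amidase (group shNIT2), gave 1 H3K14ac and 1 input library, and cells with the control hairpin (group shNT) gave the same. All cells carried a hairpin, and the labels say neither how many hairpin sequences stood behind each name nor whether cells were a clone or a pool. Peak lists do not measure the NIT2 mRNA, so the knockdown itself is not checked here. Each H3K14ac library gave 1 peak list, and with 1 library per condition no difference has a replicate check and no test across samples was possible.

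The lists differ in the number of fragments behind a region. The shNIT2 list held 28187 regions with a median of 22 fragments at the summit, and the shNT list 39876 regions with a median of 6. The lowest background, the genome-wide floor of the peak caller, was 2.48 fragments in shNIT2 and 0.278 in shNT, a ratio of 8.93, which depends on the fragment length too. Total reads per library are unknown. The authors' fold (pileup over background at the summit, with a pseudocount) ranks regions within a list and is not compared between lists here. The 8 epithelial genes checked all had a shNIT2 region and 5 had a shNT region, while ALB, MYOD1, NEUROD1 and COL1A1 had neither. PTPRC and CD3E, genes of blood cells, had shNIT2 regions (4.07-fold and 4.34-fold), and PTPRC also had a shNT region of 3.12-fold.

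Nearly all ribosomal protein genes carried H3K14ac in the shNIT2 list. A region overlapped the gene span extended by 1 kb on both sides for 79 of 81 members, against 47.0% of all protein-coding genes. In the shNT list this held for 21 members, against 28.5% of all genes. That count depends on the threshold: it was 6 members (5.93% of all genes) at −log10 q of at least 5, 5 members (1.03%) at 10 and 10 members (10.4%) at a fold of at least 5. In shNIT2 the same thresholds left 77 members (36.0% of all genes), 71 (22.7%) and 68 (24.9%). Both lists marked 21 members (19.6% of all genes), the shNIT2 list alone 58 (27.4%), the shNT list alone 0 (8.90%) and neither list 2 (44.1%). By subunit, large before small, regions lay at 47 of 49 and 32 of 32 genes in shNIT2 and at 13 of 49 and 8 of 32 genes in shNT. Short genes have short windows, and members were short, with a median span of 5015 bp against 24115 bp over all genes. Among the 70 members of at most 10 kb, 69 had a region in shNIT2, against 29.5% of all genes of that length, and 18 in shNT, against 6.99%. The share of members in shNT thus lay close to that of all genes over the full table and above it among short genes, and no test of this difference could be made.

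**Figure D1:**
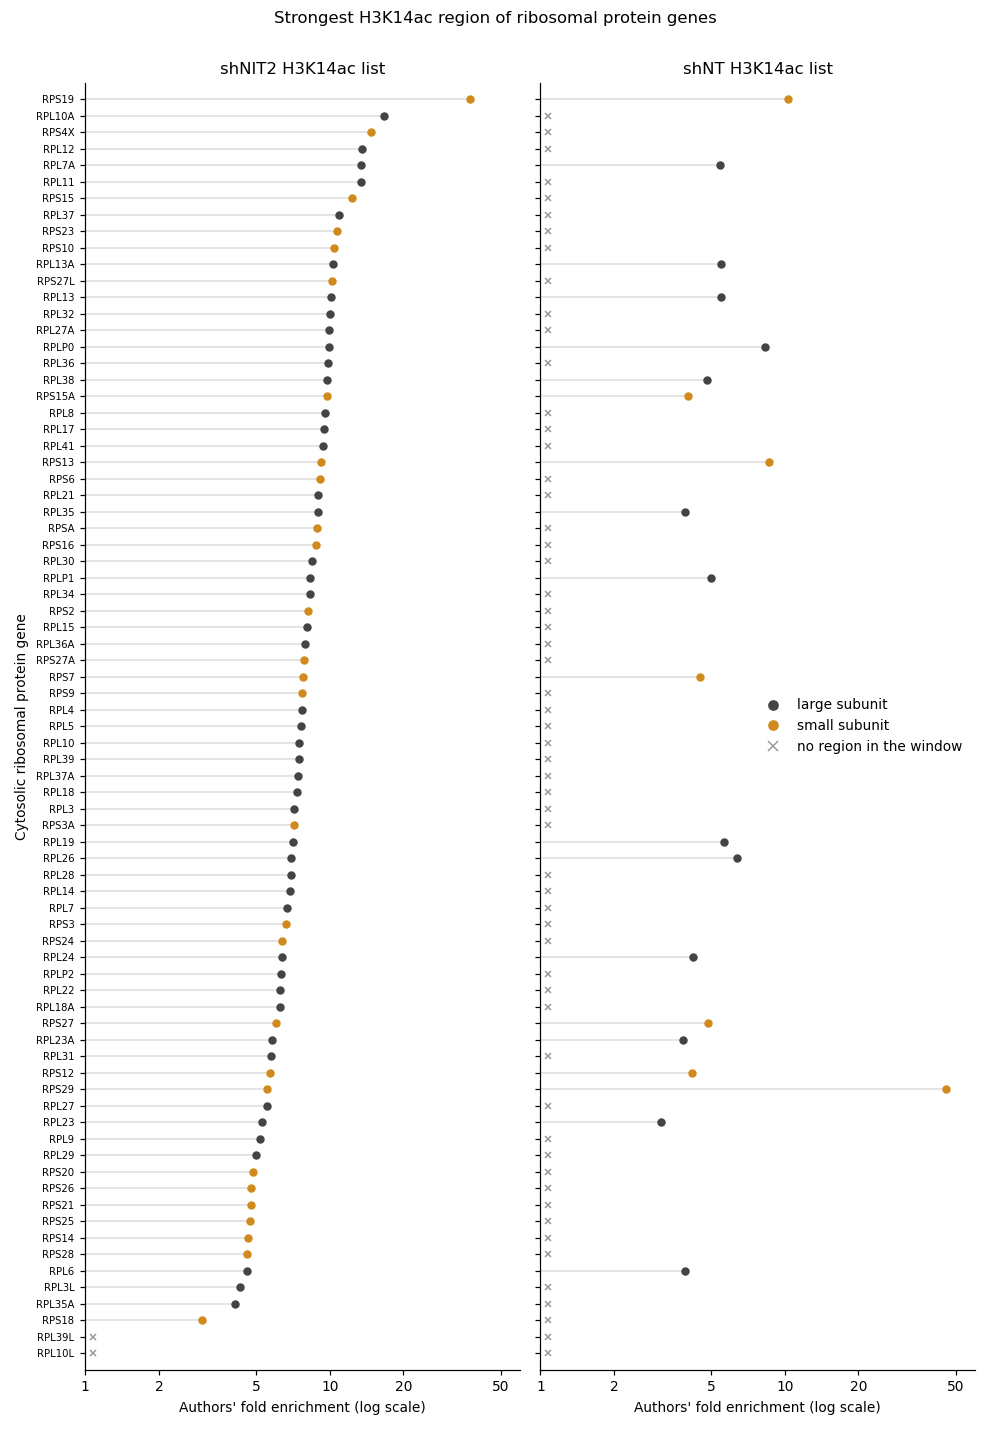
Authors' fold enrichment (log axis) of the strongest region in the windows of the members shown, with the shNIT2 list on the left and the shNT list on the right. Points are coloured by subunit and crosses mark members with no region; RPS19 leads in shNIT2 at 37.4-fold, the 45.4-fold point in shNT is the RN7SL1 region inside RPS29, and RPL39L and RPL10L have crosses in both panels.

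Next come the tissue-restricted copies and their widely used relatives. RPL10L, the testis copy of RPL10, and RPL39L, the testis copy of RPL39, had no region in either list, and their nearest shNIT2 regions lay 864556 bp and 43397 bp away. RPL3L, the muscle copy of RPL3, was counted in shNIT2 only through a region of 4.31-fold outside its span, on chr16:1942386-1943107, which also lay in the window of MSRB1, a methionine sulfoxide reductase gene. The widely used relatives all had regions over the gene itself in shNIT2. These were RPL10 (7.48-fold on 51 fragments), RPL39 (7.45-fold on 28 fragments) and RPL3 (7.16-fold on 29 fragments), and none of them had a shNT region. RPS27L, a p53-inducible relative of RPS27, was marked in shNIT2 at 10.2-fold on 89 fragments, and RPS27 at 6.04-fold on 32 fragments. In shNT, RPS27 had a region of 4.86-fold on 6 fragments and RPS27L had none. Of 6 further paralogs outside the symbol rule, 3 had a shNIT2 region, RPL22L1 (8.31-fold), RPL7L1 (6.28-fold) and RPL36AL (4.24-fold). RPL7L1 alone of them also had one in shNT (9.36-fold on 13 fragments). Beside them, RPL22 had 6.23-fold, RPL7 6.68-fold and RPL36A 7.88-fold in shNIT2. RPL26L1 had no region in either list, while RPL26 had 6.97-fold in shNIT2 and 6.35-fold in shNT, both in regions outside its span. Over the gene itself RPL26 had 3.12-fold in shNIT2 and 4.98-fold in shNT.

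Promoter sequences came from RefSeq (GRCh38.p14), which held 64 of the 81 members and gave the strand and one or more listed starts for each. The stretches below run from 150 bases before the annotated gene start to 25 bases from it on, and are shown because they are the starts beside which the strongest regions lie. Capitals mark the unbroken pyrimidine run that begins at the start and any match to 6 motifs searched on both strands: CTTTCC (part of the pyrimidine tract), TTCCGG (ETS factors), GGGCGG (SP1), CACGTG (MYC and other E-box factors, its own reverse complement), AAGATGGC (YY1) and TATAAA (bound by TBP). Overlapping matches run together in capitals. First come the members with the highest shNIT2 fold among those marked in both lists, on chr19:41860105-41860279 (plus strand), chr9:133348068-133348242 (plus) and chr19:49487458-49487632 (plus).
RPS19: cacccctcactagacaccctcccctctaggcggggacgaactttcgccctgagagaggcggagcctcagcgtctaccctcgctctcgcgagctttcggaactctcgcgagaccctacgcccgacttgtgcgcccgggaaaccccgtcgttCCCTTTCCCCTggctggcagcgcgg
RPL7A: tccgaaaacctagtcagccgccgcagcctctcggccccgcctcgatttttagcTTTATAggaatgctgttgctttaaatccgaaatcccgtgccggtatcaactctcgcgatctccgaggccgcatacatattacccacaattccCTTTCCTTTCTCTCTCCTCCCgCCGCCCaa
RPL13A: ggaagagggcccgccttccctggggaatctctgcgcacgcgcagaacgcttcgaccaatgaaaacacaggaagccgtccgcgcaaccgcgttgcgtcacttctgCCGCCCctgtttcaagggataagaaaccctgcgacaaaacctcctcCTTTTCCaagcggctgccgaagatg
Next come those with the highest fold among the members marked in shNIT2 alone, on chr6:35468251-35468425 (plus), chrX:72277224-72277398 (minus) and chr9:127451382-127451556 (minus), and then the one without a region in either list, on chr14:46651757-46651931 (minus).
RPL10A: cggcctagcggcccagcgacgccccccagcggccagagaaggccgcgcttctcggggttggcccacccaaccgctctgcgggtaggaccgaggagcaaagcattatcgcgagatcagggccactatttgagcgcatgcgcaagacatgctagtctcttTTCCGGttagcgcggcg
RPS4X: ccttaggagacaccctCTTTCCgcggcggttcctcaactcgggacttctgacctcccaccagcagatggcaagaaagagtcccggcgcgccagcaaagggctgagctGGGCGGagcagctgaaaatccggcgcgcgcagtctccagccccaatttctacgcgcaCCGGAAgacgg
RPL12: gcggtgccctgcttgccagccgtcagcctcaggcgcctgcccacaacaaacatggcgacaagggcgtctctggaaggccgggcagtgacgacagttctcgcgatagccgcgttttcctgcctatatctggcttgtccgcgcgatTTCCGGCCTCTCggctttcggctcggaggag
RPL10L: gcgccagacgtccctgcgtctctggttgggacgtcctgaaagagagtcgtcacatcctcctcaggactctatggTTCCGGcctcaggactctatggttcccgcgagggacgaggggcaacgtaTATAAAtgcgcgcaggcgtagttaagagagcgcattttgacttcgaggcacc

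Of the sequence features counted, the pyrimidine tract was found in the largest share of members. It was counted at any listed start of a gene, the motifs in a single promoter per gene. RPL7A began with 16 pyrimidines in a row, RPS19 with 11, RPL13A with 7 and RPL12 with 6, whereas RPL10A, RPS4X and RPL10L began with a purine. A cytosine at a listed start followed by at least 4 further pyrimidines was found in 46 of 64 members (71.9%) and in 6.24% of 15843 protein-coding promoters. The median run of pyrimidines from the annotated start was 7 in members and 0 over all genes. TTCCGG lay in 54.7% of member promoters of 300 bases, against 22.7% of all, and CTTTCC in 45.3% against 26.4%. AAGATGGC was rarer, in 9.38% of member promoters against 3.86% of all. GGGCGG (56.2% against 58.3%), TATAAA (9.38% against 9.75%) and CACGTG (4.69% against 8.82%) were no more frequent in members. A match describes letters only. Among genes outside the family, a shNIT2 region within 1 kb of the gene start was present for 44.8% of 942 genes with the tract and 35.9% of 14837 without it. In members it was present for 46 of 46 with the tract and 16 of 18 without, and the 2 without a region were RPL10L and RPL6.

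The strongest shNIT2 regions of the members lay in a narrow place just after the gene start. Within 1 kb of the start, 62 of 64 members with a known strand had a shNIT2 region (36.7% of all genes with a strand) and 13 a shNT region (5.50%). The summit of the strongest such shNIT2 region lay a median of 353 bp after the start (quartiles 314 and 449). Over all genes the median was 318 bp with quartiles of 64.5 and 494, so the centres were alike and the members were packed more closely around theirs. Summits fell 200 to 600 bp after the start in 53 of 62 members (85.5%), against 51.7% of all genes with such a region, and before the start in 3 members (4.84%), against 24.5% of all genes. The bin from 300 to 400 bp alone held 30 of the 62. The regions began just past the start, at 1 to 150 bp after it, in 42 members (67.7%), against 34.9% of all genes. They covered the start itself in 10 members (16.1%), against 14.3% of all genes, and ended before it in 3 members (4.84%), against 20.2%.

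**Figure D2:**
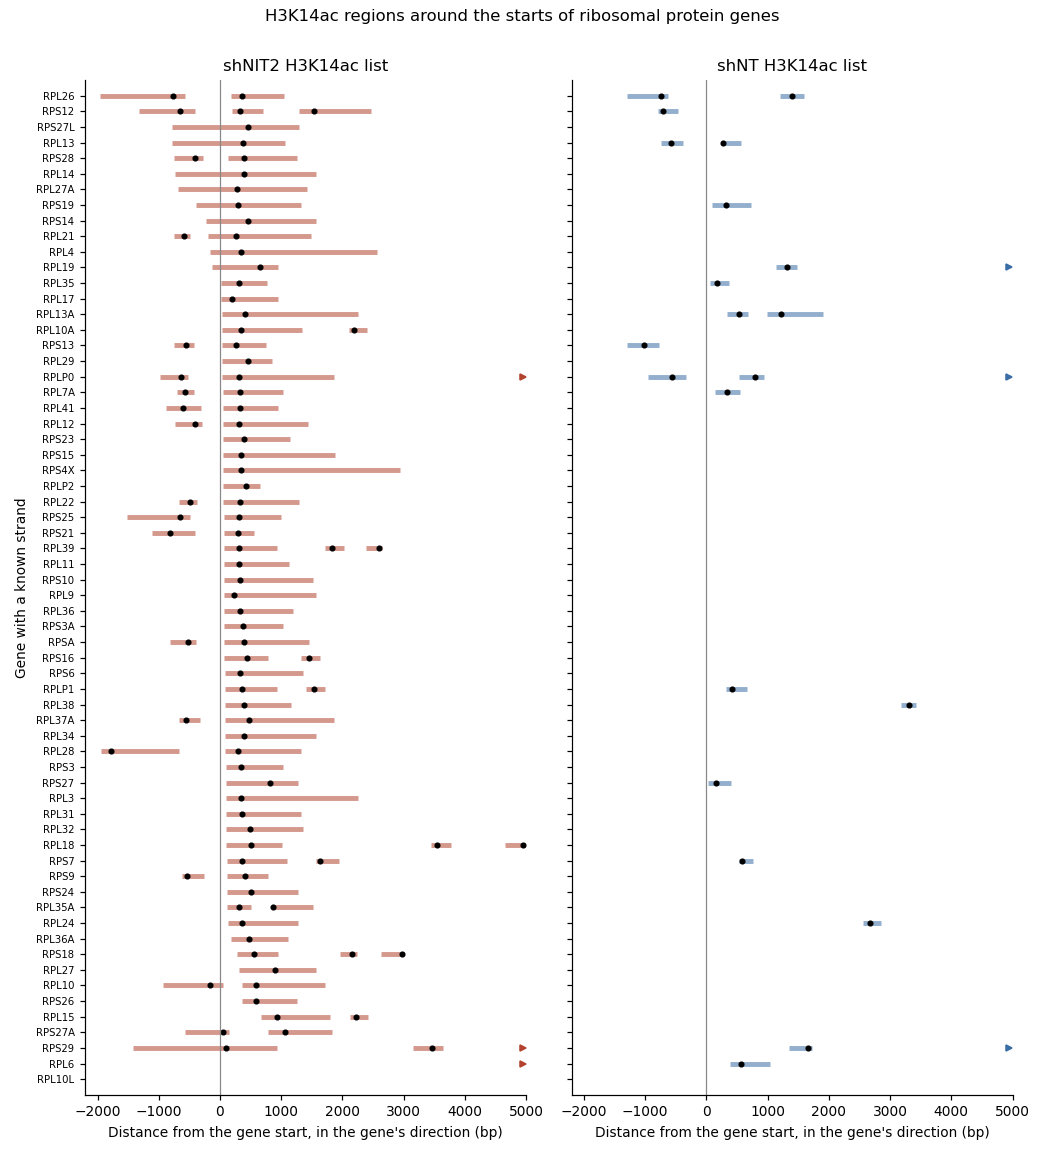
Every H3K14ac region of the 64 members with a known strand, drawn as a bar by distance in bp from the annotated gene start, in the direction of transcription, with the shNIT2 list on the left and the shNT list on the right. Dots are summits and triangles are regions beyond the axis; the left edges in shNIT2 line up just after the start and the dots near a median of 353 bp.

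Single members show how this looks. RPL10A (16.6-fold on 79 fragments) had its shNIT2 region from 32 to 1347 bp after the start with the summit at 346 bp. RPL12, a protein of the stalk base, had one from 45 to 1442 bp with the summit at 313 bp (13.5-fold on 77 fragments). RPL11, which with RPL5 binds MDM2 and so links ribosome assembly to p53, had one from 63 to 1129 bp with the summit at 318 bp (13.4-fold on 51 fragments). RPS15, of the small subunit head, ran from 51 to 1876 bp with the summit at 343 bp (12.3-fold on 49 fragments). These 4 had no shNT region. Starts and summits thus kept nearly the same distance in genes of different subunits on 4 chromosomes.

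A few members departed from this layout. RPL26 had the summit of its strongest shNIT2 region at -769 bp, before the start (6.97-fold), and that of a weaker one at 354 bp after it (3.12-fold). RPS12 had 5.67-fold at -645 bp and 3.12-fold at 331 bp, and RPS28 had 4.57-fold at -415 bp and 4.07-fold at 390 bp. All 3 therefore also had a region at the usual place. RPL6 had no shNIT2 region near its annotated outer start. Its region of 4.57-fold on 24 fragments had its summit 9500 bp into the gene, at -50 bp from the nearest start that RefSeq lists for RPL6. In shNT its region of 3.91-fold on 4 fragments lay 571 bp after the outer start, also in the window of PTPN11, a tyrosine phosphatase gene. That summit lay at -6822 bp from the nearest listed start, so of the RPL6 regions only the shNIT2 one lay at a listed start. Separate regions on both sides of the start within 1 kb were listed in shNIT2 for 15 members (24.2%), among them RPL7A, RPL12, RPLP0, RPL41 and RPSA, against 19.9% of all genes with a region there. Over the strongest region of each window in 63 members, the median summit lay 359 bp after the annotated start and 344 bp after the nearest listed one.

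Members' regions were wide. The strongest shNIT2 region of a member had a median width of 1150 bp (quartiles 912 and 1574), against 656 bp over all genes with a region (quartiles 432 and 1066). At least 1000 bp was reached by 49 of 79 members (62.0%), against 27.6% of all genes. Among the widest were those of RPS4X, one of the X-linked members (2886 bp), and RPL4, which lines the exit tunnel (2728 bp). The RPS4X region ran to 2937 bp after the start of a 5207 bp gene. The narrowest were those of RPS20 (400 bp), RPL35A (402 bp) and RPL7 (457 bp). Width went only loosely with the log2 fold among members (Pearson r = 0.34, Spearman rho = 0.34, over 79 genes that share 1 library). Over all genes the same measures were 0.60 and 0.66. In shNT the members' strongest regions had a median width of 371 bp, against 317 bp over all genes, and the widest was that of RPL13A at 907 bp. Widths are not compared between the lists, whose regions rest on different numbers of fragments.

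**Figure D3:**
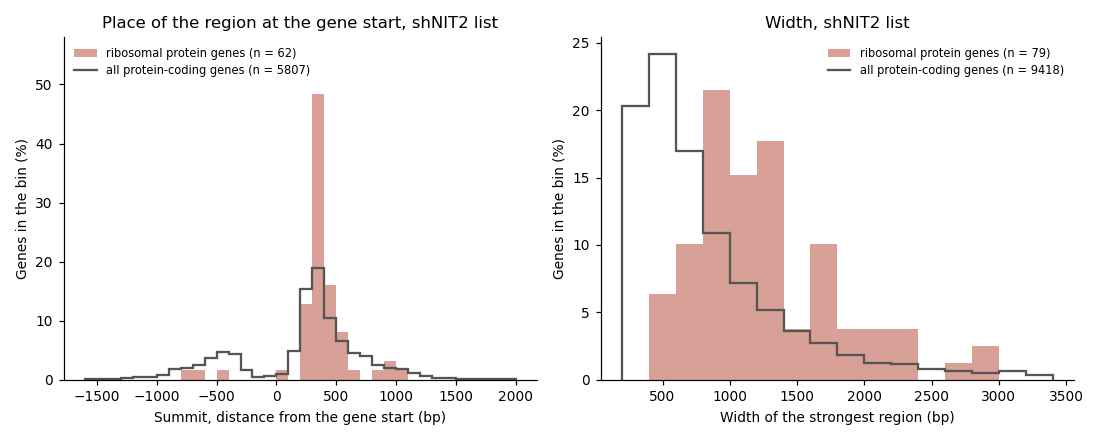
Left, summit distance from the gene start in bp for the strongest shNIT2 region within 1 kb of it, as the share of genes per 100 bp; right, width in bp of the strongest shNIT2 region of each gene's window, per 200 bp. Filled bars are ribosomal protein genes and the line is all protein-coding genes, of which 46 and 169 lie beyond the axes; members peak at 300 to 400 bp (48.4%) and are wider, with a median of 1150 bp against 656 bp.

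By strength, members ranked in the upper part of the shNIT2 list without leading it. The median fold was 7.76 (quartiles 6.23 and 9.76, range 3.0 to 37.4), against 5.17 over all 9418 genes with a region, and 67 of 79 members lay above the median gene. Only 11 (13.9%) lay in the top 10% of genes. RPS19, which encodes a protein of the small subunit and was the first gene found mutated in Diamond-Blackfan anaemia, was far ahead of the rest. Its shNIT2 region, on chr19:41859866-41861572, had 37.4-fold on 163 fragments over a background of 3.39, which ranked 10 by fold among all 28187 regions. In shNT its region on chr19:41860354-41860978 had 10.3-fold on 13 fragments over 0.361. The summits stood 288 bp and 321 bp after the start, so the lists mark RPS19 at nearly the same point. RPL10A and RPS4X (14.8-fold on 59 fragments) followed in shNIT2, and RPL12, RPL7A (13.4-fold on 58 fragments), RPL11, RPS15 and RPL37 (10.9-fold) were also among the 10 highest. The weakest were RPS18 (3.0-fold on 25 fragments) and RPL35A (4.08-fold on 26 fragments). The region of 55 of the 79 members lay in the window of no other protein-coding gene. The other 24 members could share theirs with a neighbour, as RPL7A did with MED22 and RPL12 with LRSAM1.

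RPLP0, RPLP1 and RPLP2 form the stalk, which recruits elongation factors to the large subunit. In shNIT2, RPLP0 had 9.88-fold on 98 fragments, RPLP1 8.30-fold on 57 and RPLP2 6.32-fold on 21. In shNT, RPLP0 had 8.30-fold on 14 fragments and RPLP1 4.98-fold on 7, while RPLP2 had no region. RPLP0 was the only member with 3 regions in each list. Other members with well-known roles were marked in shNIT2 alone: RPS6, the target of S6 kinase (9.09-fold on 31 fragments), RPL5 (7.64-fold on 31), RPS14, lost in the 5q- syndrome (4.62-fold on 39), RPSA, also known as the laminin receptor (8.84-fold on 56), and RPS27A, made as a fusion with ubiquitin (7.86-fold on 52).

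The 21 members with a shNT region rested on few fragments. The strongest shNT regions had a median of 6 fragments (range 4 to 72) and a median fold of 4.98. Besides RPS29, the higher counts included those of RPLP0, RPS19, RPS13 (8.61-fold on 10) and RPL13A (5.47-fold on 9). RPS13 had the summit of its shNT region at -1024 bp, before the start, and no shNIT2 region overlapped it, the nearer of its shNIT2 regions ending just short of it. RPL26 (6.35-fold on 8), RPL19 (5.66-fold on 7), RPL13 (5.48-fold on 6), RPL7A (5.45-fold on 6), RPL38 (4.81-fold on 6), RPS7 (4.51-fold on 5) and RPL24 (4.20-fold on 5) came next. RPS12 (4.16-fold on 5), RPS15A (4.01-fold on 5), RPL35 (3.91-fold on 4), RPL23A (3.83-fold on 6) and RPL23 (3.11-fold on 4) had the weakest with RPL6. The RPL38, RPL24 and RPL19 regions lay 3313 bp, 2671 bp and 1323 bp after the start, away from the shNIT2 regions of these genes.

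RPS29 had the highest fold of any member in shNT and one of the lower ones in shNIT2, at different places in its span of 27723 bp. The shNT region, on chr14:49586588-49586874, had 45.4-fold on 72 fragments and lay within RN7SL1 (chr14:49586580-49586878), the RNA of the signal recognition particle, 11957 bp from the annotated RPS29 start. The strongest shNIT2 region there ended short of RN7SL1 in genome coordinates (chr14:49584056-49586315, 5.53-fold on 45 fragments). At its own start RPS29 had a shNIT2 region of 5.33-fold on 27 fragments with the summit at 96 bp. Its second shNT region had 4.51-fold on 6 fragments at 1655 bp (−log10 q of 3.08), so RPS29 counts as marked in shNT without the RN7SL1 region as well. At −log10 q of at least 5 or a fold of at least 5 it counts only through the RN7SL1 region.

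A shNT region needs a minimum of fragments. Dividing the shNIT2 fragments by the ratio of the floors gives a rough count to set beside the smallest pileup of the whole shNT list, 3 fragments. Members' strongest shNT regions had at least 4 fragments, over a median background of 0.441. With 4 fragments over a background of 0.606, RPL23 only just passed, at −log10 q of 1.31. In 15 of the 79 members a shNT region overlapped the strongest shNIT2 region itself, against 13.1% of all genes with a shNIT2 region. In those, the scaled shNIT2 count and the strongest shNT count were 18.2 and 13 for RPS19, 11.0 and 14 for RPLP0, 9.85 and 9 for RPL13A, 6.49 and 6 for RPL7A and 6.38 and 7 for RPLP1. At lower scaled counts the shNT count was mostly higher, as with RPL26 (4.25 and 8), RPL23A (3.36 and 6) and RPS12 (2.57 and 5). RPL23 (4.81 and 4) went the other way. The paired counts can lie at different points, with RPL13A summits at 401 bp in shNIT2 and 1217 bp in shNT. These are members that passed the threshold in shNT, so the pairs describe only them. Of 32 members with a scaled count of 5 or more, 7 had an overlapping shNT region (21.9%, exact 95% interval 9.28 to 40.0), against 39.7% of the 1663 genes in that class. Among the 25 without one were RPS27L (9.96), RPL10A (8.84), RPL12 (8.62), RPL4 (8.06), RPS10 (7.17), RPL37A (7.05) and RPS4X (6.61). The intervals cover counting error only, over genes that share 1 library per condition, and are no test of members against all genes. From 3 to under 5 the counts were 6 of 36 members (16.7%, interval 6.37 to 32.8) against 357 of 2559 genes (14%). Under 3 they were 2 of 11 members (18.2%, interval 2.28 to 51.8) against 4.12%. The median scaled counts in the highest class were 6.27 for members and 6.61 for all genes, and in the middle class 3.81 and 3.69. Under 3 they were 2.69 and 2.02. Members of that class thus lay nearer the smallest shNT pileup, and its shares are not like for like. For members with a scaled count near 3 or 4 a missing shNT region is not detectable as a difference at this depth. Where the local background is higher, this limit is higher too.

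**Figure D4:**
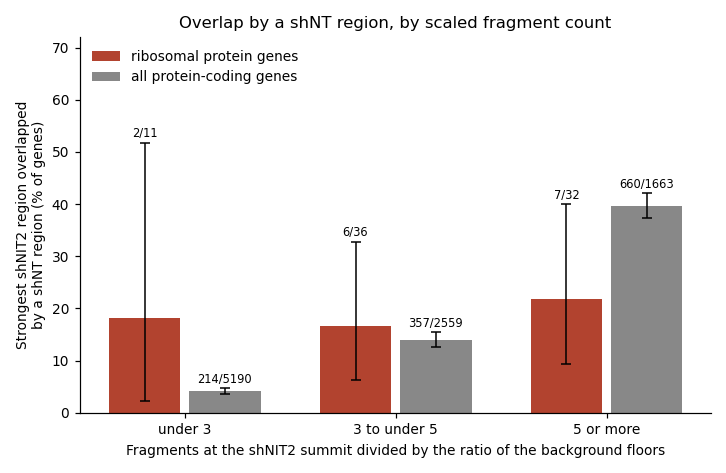
Share of genes (%) whose strongest shNIT2 region is overlapped by a shNT region, by the shNIT2 fragments at the summit divided by 8.93, for ribosomal protein genes (left bar of each pair) and all protein-coding genes. Error bars are exact 95% binomial intervals, which cover counting error only, and labels give counts; in the highest class the shares are 21.9% and 39.7%.

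Other genes of the translation machinery, described with the same windows, mostly had shNIT2 regions too. Over all protein-coding genes the shares were 47.0% in shNIT2 and 28.5% in shNT. FAU, which encodes a further small subunit protein fused to a ubiquitin-like one, was marked in shNIT2 alone, at 4.34-fold on 24 fragments. Elongation and release factors had 8 of 9 genes marked in shNIT2 (88.9%) and 3 in shNT (33.3%), led by EEF1A1, which delivers aminoacyl-tRNA (27.7-fold on 168 fragments in shNIT2 and 6.94-fold on 9 in shNT), EIF5A (11.3-fold and 6.50-fold) and GSPT1 (9.62-fold and 6.02-fold). EEF1A2, the copy used in muscle and neurons, was the one without a region in either list. Initiation factors had 27 of 34 marked in shNIT2 (79.4%) and 14 in shNT (41.2%), led by EIF4G1 (25.9-fold and 5.55-fold), EIF4A1 (25.3-fold and 5.35-fold) and EIF2S2 (15.2-fold and 4.36-fold). EIF3C and EIF3G were marked in shNT alone. Of 11 further genes with pyrimidine-tract mRNAs, 10 were marked in shNIT2 (90.9%) and 2 in shNT (18.2%), with TPT1 at 26.5-fold in shNIT2 and 4.33-fold in shNT, and NACA at 10.3-fold in shNIT2. The list shares EEF1A1, EEF2 and EIF3E with the others.

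Genes whose products build ribosomes were described in the same way, beside shares of all protein-coding genes of 47.0% in shNIT2 and 28.5% in shNT. The median shNIT2 fold over all genes with a region was 5.17. Ribosome assembly factors had 30 of 44 genes marked in shNIT2 (68.2%) and 9 in shNT (20.5%), with a median fold of 4.55 in shNIT2. WDR43, a processing factor of the small subunit, led with 14.7-fold in shNIT2 and 5.55-fold in shNT, followed by NOP58 (9.22-fold and 6.01-fold) and NMD3, the export adaptor of the large subunit (8.17-fold in shNIT2 alone). WDR12 and MDN1 were marked in shNT alone, on 3 fragments each. RNA polymerase I and its factors had 10 of 20 marked in shNIT2 and 4 in shNT, with a median of 3.80-fold in shNIT2. TAF1D (9.30-fold in shNIT2 and 4.83-fold in shNT), UBTF (8.40-fold) and POLR2H (6.11-fold) led, and POLR2F, RRN3 and TAF1B were marked in shNT alone. Regulators of pyrimidine-tract mRNAs had 11 of 14 marked in shNIT2 (78.6%) and 7 in shNT, with RHEB (12.5-fold and 5.23-fold), LARP1 (10.1-fold and 5.61-fold) and YY1 (6.72-fold and 5.08-fold) on top. These lists differ in gene length, which bears on such shares, and the differences between lists were not tested.

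**Figure D5:**
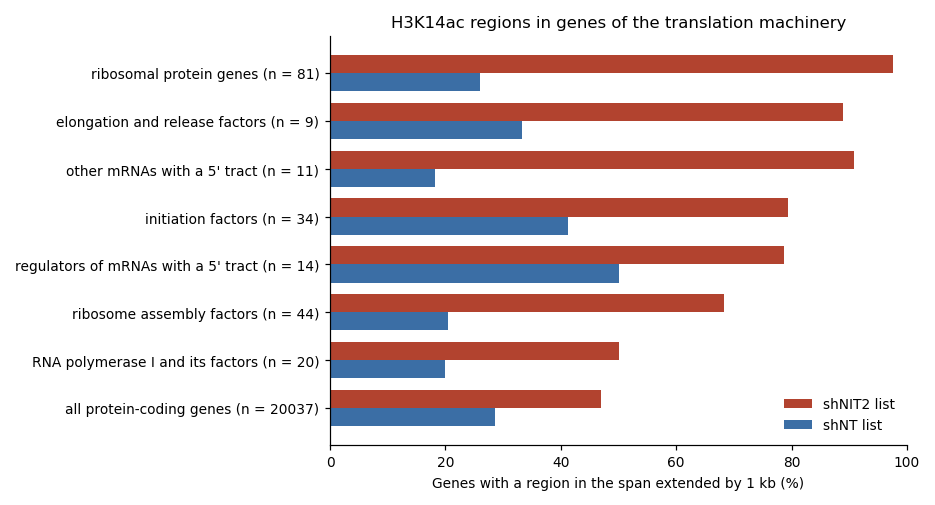
Share of genes (%) with a region in the span extended by 1 kb, with the shNIT2 list above the shNT list for each group. The bars run from ribosomal protein genes (97.5% in shNIT2 and 25.9% in shNT) to all protein-coding genes (47.0% and 28.5%).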

How the data were processed

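H3K14ac ChIP-seq libraries of shNIT2 and shNT cells gave 1 peak list each. The 2 inputs have no values in this work. Per the submitters' processing notes, the build was hg38 and the tools included MACS2 2.1.1 and Bowtie2 2.2.6, with Trimmomatic 0.35 and cutadapt 1.9.1 beside FastQC and ChIPseeker. The control used and the treatment of duplicate and multiply mapped reads are not given in the sources used here. Ribosomal protein genes have many near-identical pseudogenes, so the second point could change their values.

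The deposited lists hold, per peak, a score, a fold enrichment (a ratio with a pseudocount of 1), a −log10 p-value and a −log10 q-value, all the authors' own. The smallest deposited −log10 q was 1.30 in both lists.

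Genes, strands and promoters came from RefSeq tables of GRCh38.p14, the assembly behind hg38. Strand was known for 64 of 81 members. A gene counted when a region overlapped its span plus 1 kb by at least 1 bp, and its strongest region was that of the largest fold. The Poisson tail gave pileup and background from the deposited fold together with −log10 p, within 0.1%, and were recovered for every member. The functions were tested on simulated data. Coordinates are 1-based. Python 3.11.15, pandas 2.3.3, numpy 2.4.6 and scipy 1.17.1 were used. Members were described in full by fixed rules: the 10 highest folds, all with a shNT region or none, the widest and narrowest, and the paralogs. Members, gene lists and rules were chosen with earlier results of these data known. Promoter sequences on chromosome 8 are not shown. Some genes are counted but not reported by name here, in the text or the plot by gene. With 1 library per condition nothing was tested across samples; the alternatives tried changed thresholds, windows, overlap and symbol rule.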

Additional observations from a re-analysis of the deposited data

How the results depend on the processing

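Under 14 alternatives, 66 values stayed and 11 moved, where a count stayed within 1.5 times and a median within its exact 95% interval. The nearest listed start, the region at the gene start and regions in no other coding window were chosen after seeing the data, as was the limit to short genes. The number of members marked in shNIT2 ran from 58 with regions in no other coding window to 82 of 87 with longer suffixes allowed, beside 79. The share of all protein-coding genes with a region in no other coding window was not counted, so the 58 has no value beside it. The counts in shNT, and those in both lists, fell to 6 at −log10 q of at least 5, to 5 at 10 and to 10 at a fold of at least 5. Within 1 kb of the gene start, among 64 members, they were 13 in shNT (5.50% of all genes with a strand), 12 in both and 1 (RPL6) in shNT alone. For both lists and for shNT alone within that window, the share of all genes was not counted. The median shNIT2 width was 948.5 bp over all regions of the members, and the median shNT width 576 bp at −log10 q of at least 5, on 6 genes. The causes were not tested, beyond the fewer regions or genes each leaves. No paired analysis was possible because each condition has 1 library, and for the same reason no library could be left out.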

Other observations

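Ribosomal protein genes have many pseudogenes, mostly copies of their mRNAs inserted elsewhere in the genome, of which the gene table lists 1966 for the members. A shNIT2 region overlapped the span of 20 of them (1.02%), against 1.41% of 15085 other pseudogenes. A shNT region overlapped 7 of them (0.356%), against 286 of the 15085 others (1.9%). The median spans were 537 bp and 783 bp. Over 1 kb from any protein-coding gene lay 1180 of the pseudogenes of members, of which 13 (1.10%) had a shNIT2 region and 6 (0.508%) a shNT region. Of 10073 other pseudogenes as far away, 1.26% had a shNIT2 region and 2.02% a shNT region. How multiply mapped reads bear on this was not tested. The strongest was RPS25P7 (chromosome 6, 3913876 to 3914321), in a shNIT2 region of 17.0-fold and 2493 bp, wider than the pseudogene itself. In shNT the strongest was RPS3AP46, at 6.49-fold, which also had 8.14-fold in shNIT2.

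Many members hold small nucleolar RNA genes, which guide the modification of ribosomal RNA and are released from introns. Of the 81 members, 29 (35.8%) contained at least 1 such gene, 60 in all, against 2.63% of all protein-coding genes, and RPL3, RPL4, RPL7A, RPL13A and RPL23A were among those that held 4.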
